A study of Homo sapiens with 6 samples.

Results

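Selenoproteins carry selenocysteine, an amino acid that holds selenium in place of the sulfur of cysteine. The account here follows the RNA of 10 human selenoprotein genes, GPX1, GPX4, SELENOW, SELENOH, SELENOK, SELENOM, SELENOS, SELENOT, SELENOF and MSRB1, taken by gene symbol from 63643 rows of a table of raw read counts. All 10 symbols were found, and 9 of them passed the filter on low counts and were tested. The cells were HEK293T, an established human embryonic kidney line, carrying a deletion of GLO1 in all groups. GLO1 encodes the glyoxalase that begins the clearance of methylglyoxal (MGO), a reactive by-product of glycolysis. The MGO group had 60 µM MGO for 4 h (3 libraries) and the Control group was untreated (3 libraries). This dose is the protocol's, and the names of the MGO libraries carry another number that the labels do not explain. The labels do not say whether the deleted line is a single clone, or that each library had its own culture. The p-values therefore reflect only how these 6 libraries vary, and that variation may be technical.

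Selenocysteine is encoded by UGA, which in other mRNAs is a stop codon. It is read as an amino acid when a hairpin in the 3′ untranslated region, the SECIS element, recruits SECISBP2, the elongation factor EEFSEC and the selenocysteine tRNA. When the UGA is read as a stop upstream of an exon junction, the transcript can be degraded by nonsense-mediated decay, a route known from GPX1 and other selenoprotein mRNAs when selenium is scarce. Many selenoproteins reduce peroxides, methionine sulfoxide or disulfides, and several reside in the endoplasmic reticulum (ER), where they take part in protein folding and disposal.

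The selenocysteine codon and its coding surroundings are shown for each member because the place of this codon in the transcript is what makes a selenoprotein mRNA a possible decay substrate. The sequences come from GENCODE release 29 on GRCh38, are written as DNA from 5′ to 3′, and show up to 5 codons on each side. Capitals mark the selenocysteine codon. The lines of SELENOK and SELENOS end early, at their own stop codons.
GPX1: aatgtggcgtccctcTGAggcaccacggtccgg
GPX4: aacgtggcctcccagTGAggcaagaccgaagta
SELENOW: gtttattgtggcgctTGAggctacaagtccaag
SELENOH: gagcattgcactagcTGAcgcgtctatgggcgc
SELENOM: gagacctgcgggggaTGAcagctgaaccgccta
SELENOT: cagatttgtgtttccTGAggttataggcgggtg
SELENOF: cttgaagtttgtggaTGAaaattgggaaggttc
MSRB1: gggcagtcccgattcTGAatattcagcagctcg
SELENOK: ccaatggctggtggaTGAggaaggtaa
SELENOS: ccgtcatctggcggaTGAggctaa

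In 7 members the selenocysteine codon ended more than 50 nt upstream of the last exon junction, the distance used here to mark a stop codon that decay could recognise. It lay 470 nt upstream in SELENOT, 342 nt in GPX4, 243 nt in SELENOW, 136 nt in SELENOH, 135 nt in SELENOM, 105 nt in GPX1 and 78 nt in SELENOF. In the other 3 it lay closer, at 34 nt in MSRB1, 13 nt in SELENOS and 5 nt in SELENOK. SELENOK and SELENOS carry selenocysteine almost at the protein's end, as codon 92 of 94 and codon 188 of 189, whereas it is codon 13 of 87 in SELENOW and codon 49 of 203 in GPX1.

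**Figure D1:**
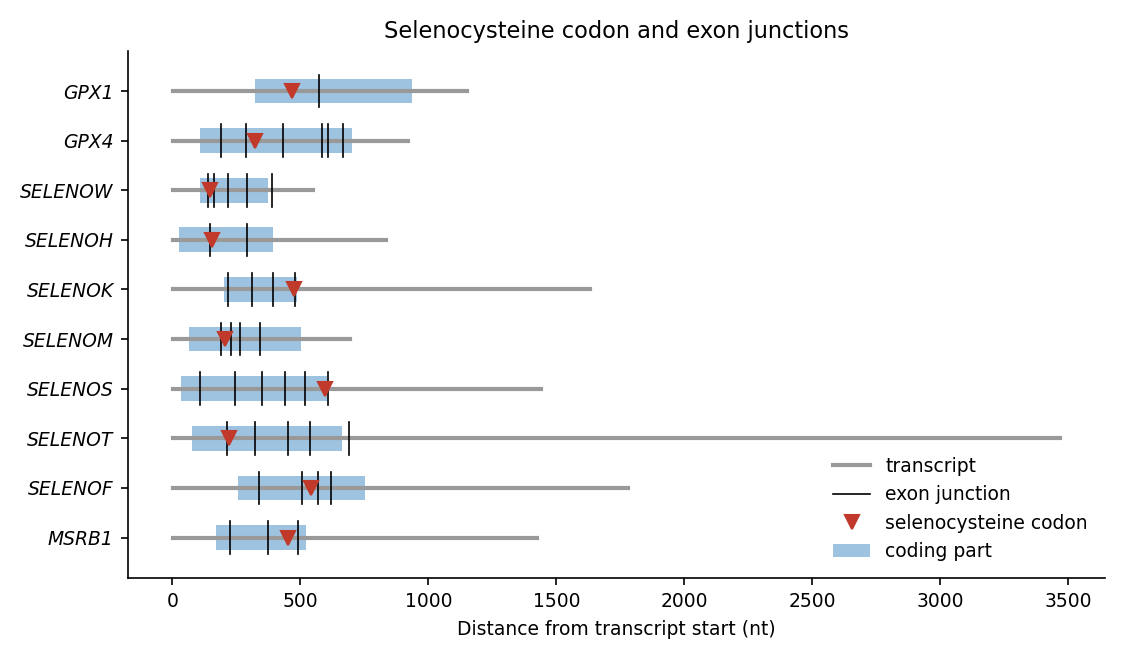
Transcripts of the 10 members drawn to scale, in nt from the transcript start, with the coding part as a box, exon junctions as lines and the selenocysteine codon as a triangle. The triangle sits beside the last junction in SELENOK and SELENOS, and well before it in GPX4, SELENOT and SELENOW.

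The MGO libraries held 128270160 to 138680220 counts each, and the Control libraries 117427883 to 157639431. Levels are CPM, counts scaled to one common library total, on library sizes after TMM scaling, which assumes that most genes do not change. That assumption is uncertain here, because 79.3% of tested genes were called. The TMM factors were 0.815 to 0.8579 in MGO and 1.186 to 1.214 in Control libraries, and the SEs and p-values take them as known. GLO1 had 11154 to 11704 counts in the MGO libraries and 5357 to 6860 in the Control libraries. It was called raised (log2 fold change 1.45, SE 0.06, edgeR adjusted p = 5.6e-10). With the deleted part not given in the labels, these counts say nothing on the deletion or the grouping. Of 6 markers of HEK293T, VIM, KRT8, KRT18 and NEFL stood at 67.53 CPM or more in Control, PAX2 at 6.591 and NEFM at 1.457 CPM. VIM, KRT8 and KRT18 rose after MGO, with log2 fold changes of 0.89, 1.58 and 1.87, and NEFL, NEFM and PAX2 fell, with −0.94, −1.39 and −1.94. Of the blood markers, PTPRC had 0 to 3 counts in MGO and 9 to 10 in Control libraries, and CD3E had at most 3 in any library. SPI1 had 10 to 37 counts with overlapping groups, and was called raised (log2 fold change 0.99, SE 0.40, edgeR adjusted p = 0.0386). Of 3 fibroblast markers COL1A1 fell, LUM rose and DCN had at most 8 counts, and of 2 epithelial markers CDH1 fell and EPCAM rose. MGO replicate 1 stood apart for 1 liver marker, with 560 counts of ALB against 5 to 19 in the other libraries, and had 61 counts of APOA1 against 8 to 19. The part of this library in the results was not tested beyond leaving it out, and without it the 9 tested members were still called raised.

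After MGO all 9 tested members were higher, although SELENOT turned lower when libraries were scaled by their size alone. SELENOT and SELENOH did so when a trend on transcript length and GC content was removed. SELENOH then still lay above the median of its length range. SELENOT stayed higher when the length of its selenocysteine-coding transcript was used. Each of the 9 passed the main test (edgeR quasi-likelihood test, Benjamini-Hochberg adjusted p under 0.05 over all 23109 genes tested). Their log2 fold changes ran from 0.38 in SELENOT to 2.02 in SELENOK, with a median of 1.30. In the same comparison 79.3% of all tested genes were called, 38.8% as raised and 40.5% as lowered, and the median over all tested genes was −0.02. When libraries were scaled by size alone, 5673 of all genes were called raised and 12885 lowered. The CPM of the MGO and Control libraries did not overlap for any of the 9, with MGO higher. Over all tested genes 81.5% had groups that did not overlap, 39.7% with MGO higher and 41.8% with MGO lower. RNA from a whole culture does not tell apart a change in the share of cells that hold a transcript and a change in its amount per cell.

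Among the peroxidases, GPX1 (chromosome 3, 49357171 to 49358600; selenocysteine codon at chr3:49358132-49358134, minus strand) reduces hydrogen peroxide in the cytosol. It stood at 112.5, 154.0 and 139.8 CPM in the MGO libraries and at 41.82, 41.35 and 41.82 CPM in the Control libraries. The Control values were nearly identical and every MGO value lay far above them, with replicate 1 the lowest of the MGO libraries. The rise was 3.25-fold (log2 fold change 1.70, SE 0.10, edgeR adjusted p = 6.39e-09). Reads may be shared with its pseudogene GPX1P1, which had 1604, 2569 and 2465 counts in MGO and 1116, 1618 and 1447 in Control. Summed counts of GPX1 and GPX1P1 gave a ratio of MGO to Control of 3.11.

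GPX4 (chromosome 19, 1103926 to 1106791; codon at chr19:1105403-1105405, plus strand) reduces lipid hydroperoxides within membranes and guards cells against ferroptosis. It was at 509.2, 628.4 and 584.1 CPM in MGO and at 196.9, 178.9 and 188.7 CPM in Control. The groups were well separated, and replicate 1 was again the lowest MGO library. GPX4 rose 3.05-fold (log2 fold change 1.61, SE 0.08, edgeR adjusted p = 2.12e-09). Without MGO replicate 1 the log2 fold changes of GPX1 and GPX4 were 1.82 and 1.69.

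SELENOK and SELENOS are membrane proteins of the ER that bind the machinery which extracts misfolded proteins for degradation. SELENOK (chromosome 3, 53884410 to 53891988; codon at chr3:53885831-53885833, minus strand) was at 126.1, 133.6 and 125.9 CPM in MGO and at 33.64, 29.56 and 31.71 CPM in Control. No library came near the other group. Its 4.06-fold rise (log2 fold change 2.02, SE 0.07, edgeR adjusted p = 1.16e-10) exceeded the change of 95.7% of all tested genes.

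SELENOS (chromosome 15, 101270817 to 101277500; codon at chr15:101272777-101272779, minus strand) was at 155.8, 160.6 and 160.1 CPM in MGO and at 68.80, 61.26 and 63.08 CPM in Control. Both groups were tight. The rise was 2.47-fold (log2 fold change 1.30, SE 0.06, edgeR adjusted p = 1.74e-09). These are the tested members whose selenocysteine codon lies next to the last exon junction.

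SELENOM, SELENOF and SELENOT are thioredoxin-like proteins of the ER. SELENOM (chromosome 22, 31104772 to 31120069; codon at chr22:31105951-31105953, minus strand) was the tested member with the fewest counts, with 16.48, 22.11 and 22.83 CPM in MGO and 6.244, 6.074 and 6.052 CPM in Control. The lowest MGO library, replicate 1, was still more than 10 CPM above every Control library. SELENOM rose 3.34-fold (log2 fold change 1.74, SE 0.11, edgeR adjusted p = 1.69e-08), and its log2 fold change was 1.88 without MGO replicate 1.

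SELENOF (chromosome 1, 86862445 to 86914424; codon at chr1:86880690-86880692, minus strand) binds the glycoprotein folding sensor of the ER. It was at 235.8, 242.5 and 231.9 CPM in MGO and at 137.9, 126.2 and 129.7 CPM in Control. The groups did not overlap. The rise was 1.80-fold (log2 fold change 0.85, SE 0.06, edgeR adjusted p = 5.32e-08).

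SELENOT (chromosome 3, 150602875 to 150630445; codon at chr3:150622392-150622394, plus strand), an oxidoreductase of the ER membrane, was at 96.96, 96.12 and 91.74 CPM in MGO and at 74.55, 70.39 and 73.71 CPM in Control. The MGO libraries were all higher, by a small margin. Its log2 fold change of 0.38 had a 95% interval from 0.25 to 0.51 (SE 0.06, edgeR adjusted p = 7.36e-05). Under scaling by library size alone it was −0.14 (edgeR adjusted p = 0.0547), so neither its call nor its direction holds across scalings. The opposite-strand gene SERP1 overlaps SELENOT by 354 nt and also rose (0.87, SE 0.06).

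SELENOW and SELENOH are small thioredoxin-like proteins outside the ER, SELENOW in the cytosol and SELENOH in the nucleus. Their mRNAs and that of GPX1 are known to be among those lost early when selenium is short. SELENOW (chromosome 19, 47778572 to 47784686; codon at chr19:47780732-47780734, plus strand) was at 130.7, 139.6 and 136.3 CPM in MGO and at 62.35, 53.42 and 56.95 CPM in Control. Every MGO library had more than 2 times the level of any Control library. The rise was 2.35-fold (log2 fold change 1.24, SE 0.07, edgeR adjusted p = 5.61e-09).

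SELENOH (chromosome 11, 57741250 to 57743554; codon at chr11:57741816-57741818, plus strand) was at 35.95, 41.53 and 38.81 CPM in MGO and at 22.50, 21.59 and 21.64 CPM in Control. The groups did not overlap. It rose 1.77-fold (log2 fold change 0.82, SE 0.07, edgeR adjusted p = 2.61e-07). SELENOH lies within the read-through gene TMX2-CTNND1 on the same strand, so its count is uncertain.

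MSRB1 (chromosome 16, 1938210 to 1943326; codon at chr16:1940812-1940814, minus strand), which reduces oxidised methionine, had 0, 0 and 0 counts in MGO and 0, 1 and 1 in Control. A count of 0 allows up to 3 counts, or 0.0262 to 0.0273 CPM in the MGO libraries, counting error only. EIF4A3, which encodes a core protein of the exon junction complex that most cells use, likewise had 0 to 4 counts in these libraries. The near-empty MSRB1 row is therefore not read as absent expression, and no fold change is given.

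**Figure D2:**
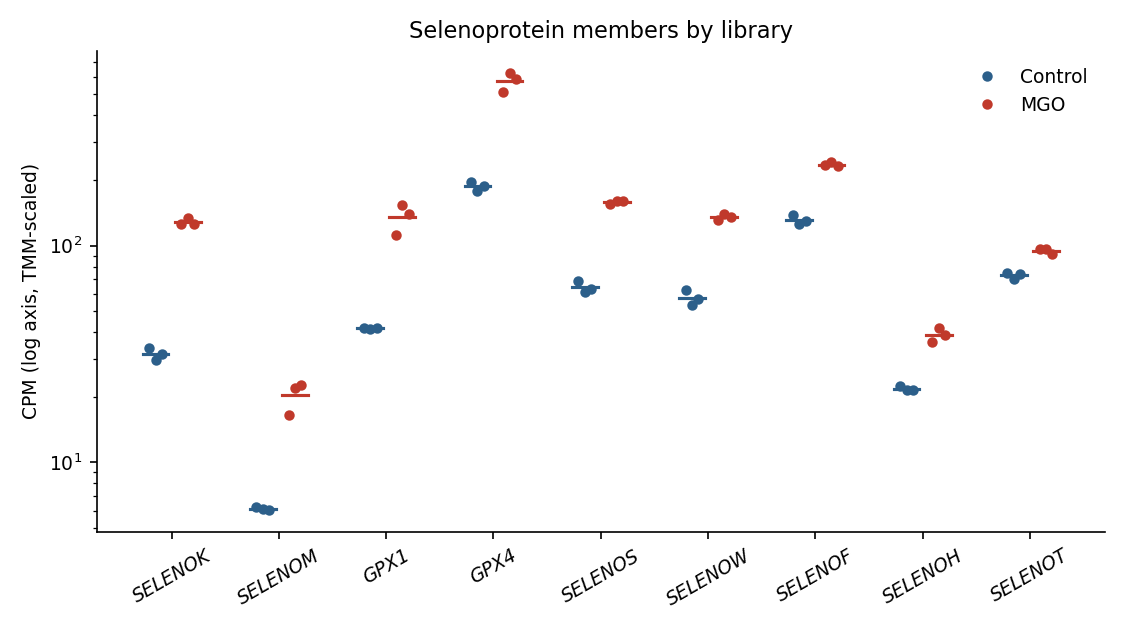
CPM of the 9 tested members in each library (points, log axis), with Control in blue, MGO in red and bars at the group means, ordered by fold change. No red point falls among the blue points of its gene, and the gap is widest for SELENOK and narrowest for SELENOT, which turns lower with library size alone.

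Levels of different genes were compared as CPM per kb of median transcript length, which for SELENOT is 1078 nt although its selenocysteine-coding transcript has 3469 nt. In Control libraries GPX4 was highest at 217 ± 10.4 CPM per kb (SD, n = 3), followed by SELENOF (73.7 ± 3.35), SELENOT (67.6 ± 2.04) and SELENOW (65.8 ± 5.14). The ranges of SELENOW and SELENOT overlapped, as did those of SELENOW and SELENOF. SELENOS (54.2 ± 3.31) and GPX1 (41.0 ± 0.267) came next. SELENOH (26.3 ± 0.614) and SELENOK (25.9 ± 1.66) did not differ beyond their spread, and SELENOM was lowest of the 9 at 8.82 ± 0.152 CPM per kb.

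In MGO libraries GPX4 remained at the top with 663 ± 69.6 CPM per kb. SELENOW (155 ± 5.14), SELENOS (134 ± 2.24), GPX1 (133 ± 20.8) and SELENOF (133 ± 3.0) followed, and the range of GPX1 overlapped those of the other 3. SELENOK stood at 105 ± 3.55 and SELENOT at 88.1 ± 2.60 CPM per kb, so these genes changed places relative to Control. SELENOH (46.5 ± 3.35) and SELENOM (29.5 ± 5.01) had the lowest levels of the tested members.

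The fold changes of all genes ran with transcript length. By the median over a gene's transcripts the tested members are short, although the selenocysteine-coding transcript of SELENOT has 3469 nt. Among tested genes the median log2 fold change was 0.66 for transcripts of more than 1000 and up to 1500 nt, and −1.64 above 6000 nt. The tested members' transcripts had lengths of 694 to 1781 nt, taken as the median over a gene's basic coding transcripts. Over the 6039 tested genes in that range the median was 0.59, with 56.5% raised and 23.4% lowered. Across the 22 tested selenoprotein genes Spearman's correlation of length and log2 fold change was −0.55, and across 21736 tested genes with a length it was −0.37. These are descriptions over genes measured in the same 6 libraries.

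With each library's trend on transcript length and GC content removed, 7 of the 9 tested members were called raised, 1 was called lowered and 1 missed the threshold, with a median of 0.68. Over all tested genes 35.5% were then called raised and 42.4% lowered, with a median of −0.10. SELENOK kept the largest change of the 9 at 1.44, followed by GPX1 at 0.84, SELENOM at 0.71, SELENOS at 0.70, GPX4 at 0.68, SELENOF at 0.50 and SELENOW at 0.34. SELENOH went to −0.06 (edgeR adjusted p = 0.269). The removal did not centre every length range. For transcripts of more than 500 and up to 1000 nt the median of tested genes was then −0.33. For those of more than 1000 and up to 1500 nt it was 0.01. SELENOH, GPX4, SELENOW and SELENOM are in the first of these ranges, each above its median. SELENOT went to −0.31, but with the length of its selenocysteine-coding transcript it was 0.88 (edgeR adjusted p = 1.81e-08). The same change of lengths took SELENOW from 0.34 to 0.19 (edgeR adjusted p = 0.00379).

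**Figure D3:**
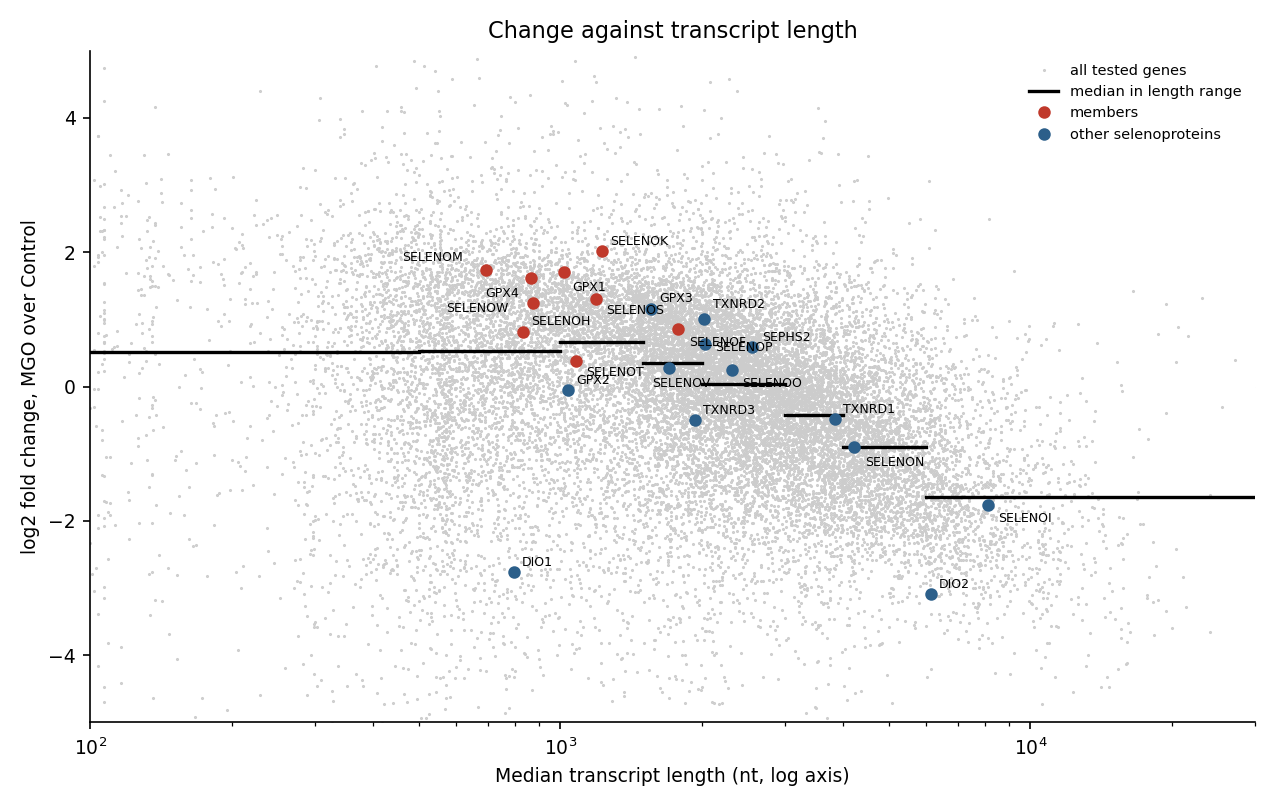
Log2 fold change (MGO over Control) against median transcript length (log axis) for all tested genes in grey, with black lines at the median of each length range, members in red and other selenoprotein genes in blue. Genes outside the drawn axis limits are not shown. Red points sit above the black lines except SELENOT, while SELENON, TXNRD1 and SELENOI lie near them. SELENOT is drawn at 1078 nt. Its selenocysteine-coding transcript has 3469 nt, in a length range with a median of −0.42.

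**Figure D4:**
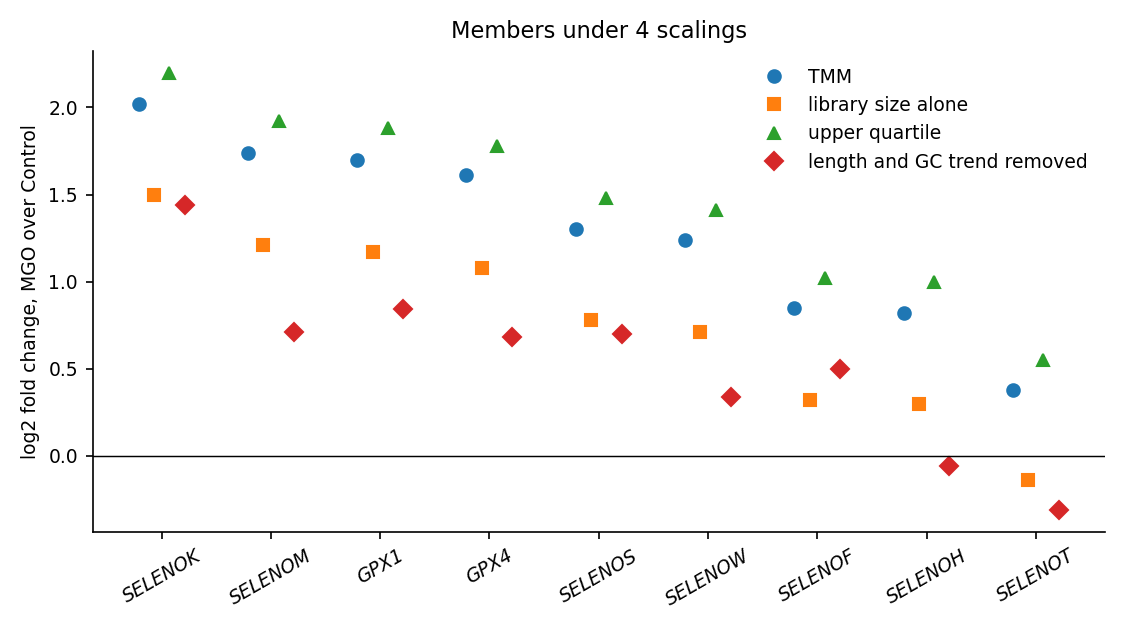
Log2 fold change of the 9 tested members (MGO over Control) with TMM scaling, library size alone, upper quartile scaling, and the length and GC trend removed. SELENOT falls below 0 with library size alone and, like SELENOH, with the trend removed. The trend removal drawn takes SELENOT at 1078 nt. With the length of its selenocysteine-coding transcript SELENOT was at 0.88, which is not drawn.

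The place of the selenocysteine codon was then set beside the changes. The 7 tested members with the codon more than 50 nt before the last junction had log2 fold changes from 0.38 to 1.74 (median 1.24), and SELENOK and SELENOS, with the codon nearer, had 2.02 and 1.30. Over all tested selenoprotein genes, 10 of 14 with the codon far from the last junction rose and 2 fell (median 0.84). Of the 8 with the codon near or past that junction, or with no junction, 4 rose and 4 fell (median −0.12). The rises include the tested members, 7 in the first class and 2 in the second. These members were chosen with earlier results of these data known. Over all tested genes 38.8% were raised and 40.5% lowered (median −0.02). In the length range of the tested members 56.5% were raised and 23.4% lowered (median 0.59). Each class counts among its falls a deiodinase gene that passed the filter only through the Control group, DIO1 in the first and DIO2 in the second. The classes also differ in length, with median transcripts of 1057.5 and 2432 nt. With the length and GC trend removed their medians were 0.35 and 0.03.

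The remaining 15 human selenoprotein genes moved in both directions. Of 13 tested, 5 rose and 6 fell, while 2 missed the threshold (median −0.05), a division near the 38.8% raised and 40.5% lowered over all tested genes. The members were chosen with earlier results of these data known. Whether their difference from the remaining genes comes from that choice was not tested. GPX3, the secreted glutathione peroxidase, rose from 32.34 ± 1.45 to 72.40 ± 7.5 CPM (1.16 on the log2 scale, SE 0.08, edgeR adjusted p = 3.31e-08). The mitochondrial thioredoxin reductase gene TXNRD2 rose by 1.01 (SE 0.08), whereas the cytosolic TXNRD1 fell from 197.6 ± 6.23 to 142.1 ± 12.8 CPM (−0.48, SE 0.07, edgeR adjusted p = 6.07e-05). With the length and GC trend removed TXNRD1 turned to 0.12 (edgeR adjusted p = 0.0342, and 0.055 with a replicate block as well). TXNRD3, the third reductase of the family, fell by 0.50 (SE 0.07) and was at −0.76 with the trend removed.

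SELENOP, the plasma selenium carrier, rose by 0.63 (SE 0.06), and SELENOO, a mitochondrial pseudokinase that attaches AMP to proteins, by 0.24 (SE 0.07). Under library size alone SELENOP was at 0.11 and no longer called (edgeR adjusted p = 0.131), and SELENOO turned to −0.29 (edgeR adjusted p = 0.00218). SELENOI, which makes phosphatidylethanolamine, fell from 100.4 ± 8.07 to 29.55 ± 2.57 CPM (−1.77, SE 0.08, edgeR adjusted p = 1.15e-09), and SELENON, an ER calcium regulator tied to muscle disease, fell by 0.90 (SE 0.09). Their transcripts are long, at 8113.5 and 4219.5 nt, and with the trend removed they were at −0.19 and −0.30. The deiodinase genes DIO1 and DIO2, whose enzymes convert thyroid hormones, fell, with log2 fold changes of −2.76 (SE 0.32) and −3.09 (SE 0.26), from Control levels of 0.3255 and 0.5635 CPM. They had 4 to 9 counts in the MGO libraries and passed the filter only through the Control group, and with a 1 CPM filter, which drops both, 4 genes of this list were lowered in place of 6.

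GPX2 (−0.05, 95% interval −0.66 to 0.56) and SELENOV (0.28, 95% interval −0.17 to 0.74) did not pass the threshold, but with the length and GC trend removed GPX2 was called lowered at −0.83 (edgeR adjusted p = 0.0162). GPX2 stood at 0.3308 CPM in MGO and 0.3398 CPM in Control, below the levels of the genes on which the trend was fitted. DIO3 and GPX6 had at most 17 and 1 counts in any library and were not tested.

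Genes that make and insert selenocysteine also divided, with 7 of 14 tested raised, 6 lowered and 1 short of the threshold (median 0.24, and −0.29 under library size alone), against 38.8% raised and 40.5% lowered over all tested genes. On the tRNA side, PSTK, the kinase that primes the serine on the selenocysteine tRNA, rose from 9.201 ± 0.240 to 22.75 ± 1.68 CPM (1.31 on the log2 scale, SE 0.08, edgeR adjusted p = 6.27e-09). TRIT1, which adds an isopentenyl group to this tRNA, rose from 25.50 ± 0.967 to 84.98 ± 8.41 CPM (1.74, SE 0.08). SARS1, which charges the tRNA with serine, rose by 0.82 (SE 0.06), and TRNAU1AP, a protein bound to the tRNA, by 1.25 (SE 0.06). With the length and GC trend removed PSTK was at 0.66, TRIT1 at 1.51, SARS1 at 0.45 and TRNAU1AP at 0.94. SEPHS2, the selenophosphate synthetase that is itself a selenoprotein, rose by 0.59 (SE 0.07), but under library size alone it was at 0.06 (edgeR adjusted p = 0.367). SEPSECS, which completes selenocysteine on the tRNA, fell by 0.76 (SE 0.08) but stood at 0.39 with the length and GC trend removed (edgeR adjusted p = 0.000124).

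On the ribosome side, the SECIS-binding protein gene SECISBP2 fell from 57.05 ± 0.430 to 29.59 ± 0.366 CPM (−0.95, SE 0.06, edgeR adjusted p = 1.13e-08), and was at −0.50 with the trend removed. Its paralogue SECISBP2L fell by 1.44 (SE 0.11), and was at −0.05 with the trend removed (edgeR adjusted p = 0.403). EEFSEC rose by 0.88 (SE 0.11) at a low level, from 1.415 to 2.593 CPM, and was at 0.48 with the trend removed. RPL30, a ribosomal protein that can bind the SECIS element, rose by 1.77 (SE 0.07) and was at 0.86 with the trend removed. NCL, encoding nucleolin, another SECIS binder, fell by 0.34 (SE 0.07), was at −0.17 under upper quartile scaling (edgeR adjusted p = 0.0515) and turned to 0.37 with the trend removed (edgeR adjusted p = 5.7e-05).

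In selenium supply, LRP8, a receptor for SELENOP, fell from 45.15 ± 1.45 to 11.57 ± 0.444 CPM (−1.96, SE 0.07, edgeR adjusted p = 1.19e-10) and was at −2.0 with the trend removed. The selenocysteine lyase gene SCLY, which frees selenium for reuse, was at −0.11 (95% interval −0.28 to 0.07) and did not pass the threshold. It was called lowered under library size alone (−0.63, edgeR adjusted p = 2.06e-05) and with the trend removed (−0.40, edgeR adjusted p = 0.000328).

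Relatives that lack selenocysteine gave a comparison within families. Most have cysteine in its place, and SEPHS1 has threonine. Of 5 tested, 2 rose and 3 fell (median −0.25, the value of SEPHS1 itself), too few to set against the shares of all genes. GPX8, an ER peroxidase, fell from 44.22 ± 0.835 to 20.17 ± 1.80 CPM (−1.13, SE 0.07, edgeR adjusted p = 2.25e-08) and stood at −1.68 with the trend removed, although its transcript of 1411 nt is in the members' range. MSRB2 and MSRB3, the cysteine forms of MSRB1, moved apart, with MSRB2 at 1.23 (SE 0.08) and MSRB3 at −1.51 (SE 0.06). MSRA, which reduces the other isomer of methionine sulfoxide, rose by 0.90 (SE 0.18) at under 2 CPM, and SEPHS1, the paralogue of SEPHS2, fell by 0.25 (SE 0.06). MSRA was no longer called under library size alone (0.37, edgeR adjusted p = 0.0791) or with the trend removed (0.27, edgeR adjusted p = 0.159). SEPHS1 was at −0.02 with the trend removed and at −0.08 under upper quartile scaling (edgeR adjusted p = 0.275). GPX7 had at most 14 counts in any library and was not tested.

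**Figure D5:**
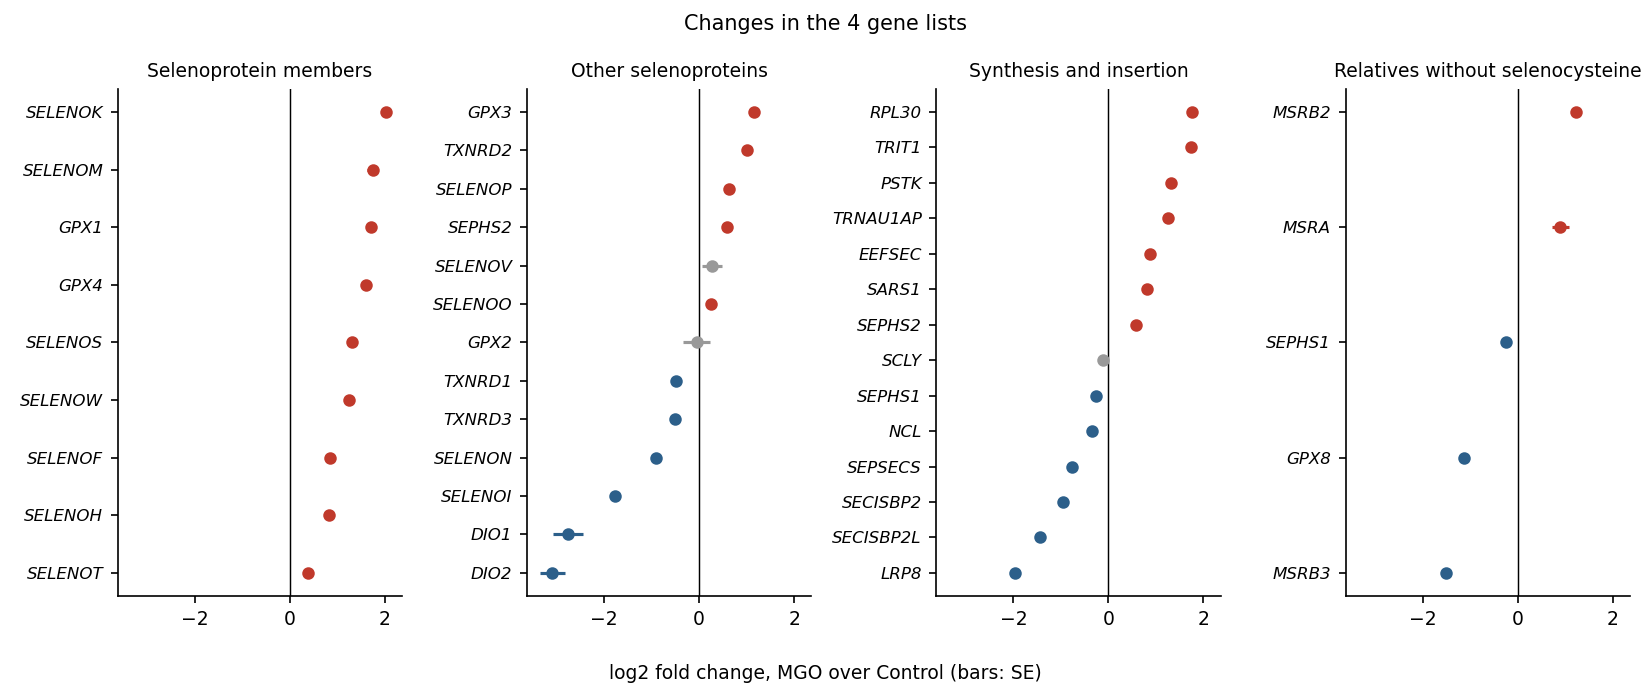
Log2 fold change (MGO over Control) with SE bars for the tested genes of the 4 lists, with raised genes in red, lowered genes in blue and genes past no threshold in grey. The first panel lies wholly to the right of 0, while each of the other 3 holds genes on both sides. The lists were chosen with earlier results of these data known, so this contrast is a description and no test. With the length and GC trend removed SELENOH and SELENOT of the first panel move below 0. SELENOT stays above 0, at 0.88, when the length of its selenocysteine-coding transcript is used.

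Promoters of 9 members, from 250 bases before to 50 after the start in RefSeq on GRCh38.p14, were searched on both strands for the letters of 3 stress elements. SELENOM had no entry. The core of the antioxidant response element bound by NRF2, TGACNNNGC, was found among these 9 in SELENOK alone, in 1 of 12 promoters listed for them (8.33%), and in 13.3% of all 35116 promoters. Of 20 promoters of 14 other selenoprotein genes 5 held it (25%), those of GPX2, SELENON, SELENOP and TXNRD1. The match TGACGATGC lies upstream of the SELENOK start, inside chr3:53891810-53892109 on the minus strand. The ER stress response element and the ATF4 element TGATGNAA were in none of the 9, and in 0.0769% and 3.62% of all promoters. A match is only a description of letters, and no match says only that these letters are not in this window.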

How the data were processed

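Polyadenylated RNA was sequenced as 3 MGO and 3 Control stranded libraries, per the labels' protocols. The authors deposited raw counts of reads for each gene. The submitters' processing notes name, with no role given, build hg38, STAR 2.7.0a, featureCounts 2.0.6, DESeq2 1.42.0, SAMtools 1.19.2, Trim Galore 0.6.10 and FastQC 0.12.0. For annotation, strand setting and multiply matching reads, nothing is given in the sources used here.

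The test was edgeR's quasi-likelihood test (edgeR 4.0.16, R 4.3.3) after TMM scaling and filterByExpr by group, with Benjamini-Hochberg adjustment over 23109 genes. SE is the size of the log2 fold change over the root of its F statistic. All 60 named genes and markers, and 56720 of 63643 rows, matched GENCODE 29 (GRCh38, the assembly of hg38). The length and GC trend was fitted per library with splines of 5 degrees of freedom and entered as an offset. The fit left out genes of low mean level, such as GPX2, SELENOV, DIO1 and DIO2, but their offsets were taken from it. Named genes are all members, all genes of the other 3 lists, the 3 genes most like the members, and pseudogenes or overlapping genes. The TXNRD1 neighbours EID3 and RPL18AP3 were chosen after their values were seen. Members and lists were chosen with earlier results of these data known. On simulated data with 22036 genes tested and only 200 changed, 22% of the genes given a 1.25-fold change were called. Of those given 1.5-fold 80% were called, and of those given 2-fold 96%. In the real data 79.3% of tested genes were called, which makes the adjustment less strict, so the simulated shares do not carry over. No 2 libraries of a group were alike within sampling noise, the lowest chi-square per degree of freedom being 3.51. Alternatives used DESeq2 1.42.0, limma-voom (limma 3.58.1), other scalings and filters, leaving out libraries, and a replicate block.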

Additional observations from a re-analysis of the deposited data

How the results depend on the processing

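The 9 tested members stayed raised under RLE size factors, upper quartile scaling, no filter, a 1 CPM filter, DESeq2, limma-voom and without each library in turn. Scaling by library size alone shifted the median of all genes to −0.55. It called 5673 of all genes raised, 2 of the other selenoprotein genes and 1 of the relatives without selenocysteine. The median of the synthesis and insertion genes was then −0.29, SELENOT was at −0.14, SELENOO at −0.29 and SELENOV at −0.24. Under upper quartile scaling the median of all genes was 0.15, that of the other selenoprotein genes 0.12, GPX2 was at 0.12 and SCLY at 0.07. The median of those relatives was 0.11 with no filter, and the other selenoprotein median 0.23 with a 1 CPM filter.

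With the length and GC trend removed, 1 member was lowered, 3 synthesis and insertion genes were lowered and 1 such relative was raised. SELENOH was then at −0.06, SELENOT at −0.31, TXNRD1 at 0.12, SELENOO at −0.06, SELENOV at −0.26, SEPSECS at 0.39 and NCL at 0.37. With a replicate block added these values stayed the same to 2 decimals, but TXNRD1 lost its call (edgeR adjusted p 0.0342 without and 0.055 with the block) and 4 in place of 5 other selenoprotein genes were raised. With selenocysteine transcript lengths, an alternative chosen after seeing the data, these counts and values were the same but for no lowered member, SELENOT at 0.88, SELENOH at −0.05 and TXNRD1 at 0.15.

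Leaving out each library in turn moved the other selenoprotein median between −0.30 and 0.18, that of the relatives between −0.27 and 0.22, and GPX2 between −0.30 and 0.15. The filter was rerun each time, so the genes tested differed. The relatives' median was positive (0.07 to 0.22) in the runs that tested 6 relatives. It was −0.22 or −0.27 in those that tested 5. The other selenoprotein median was positive only in runs that tested 14 genes in place of 13. Without Control replicate 2, also with 14 tested, it was −0.03. The cause of these changes was not tested. Replicate numbers did not pair the libraries (same-number correlations 0.05, −0.06 and 0.09). With the replicate number as a block, 9 members were raised, and over all genes 8869 were raised and 9299 lowered. Of genes given a 1.25-fold change in simulated data 22% were called, but only 200 genes were changed there. That share does not carry over to the real data, where 79.3% of tested genes were called.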

Other observations

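The genes most like the members in their pattern over the 6 libraries, by Pearson's correlation of log2(CPM + 0.1) with the members' mean profile, were STX5, DTNBP1 and ROMO1. Of 18551 genes compared, 2961 had a correlation above 0.99, so these names describe a pattern that many genes share. EID3, which lies within TXNRD1 on the same strand, had 665, 539 and 490 counts in MGO and 38, 66 and 41 in Control (4.13 on the log2 scale, SE 0.18, edgeR adjusted p = 6.24e-10), while TXNRD1 itself fell. The pseudogene RPL18AP3, also within TXNRD1, had 1160, 1982 and 2659 counts in MGO and 379, 627 and 604 in Control. The pseudogene row GPX1P1 changed by 1.25 (SE 0.14) and held 11.5 to 17.1% of the reads counted to GPX1 and GPX1P1 together.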
